A study of Mus musculus with 6 samples.

Results

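The genes described here are 33 genes of the unfolded protein response and the integrated stress response, chosen by name, as measured in 3T3-L1 cells given an extract of Tsuruazuki ("Tsuru") or none. Each gene was read from its brightest transcript cluster (the array's gene-level probe set) whose deposited symbol names it alone, and 31 of the 33 had such a cluster, among 21154 genes in all. Pdia4 and Manf, which encode a disulfide isomerase and a secreted folding factor of the endoplasmic reticulum (ER), share their clusters with another symbol and were not analysed here. 3T3-L1 is a mouse fibroblast-like line that becomes fat-storing adipocytes after hormonal induction. Cells past confluence were induced with IBMX, insulin and dexamethasone, moved to insulin medium at day 3 and collected at day 9, and each group was run on 3 Clariom S arrays. Both groups thus shared the same line, induction mixture, 10% serum medium and collection day, as far as the treatment protocol tells. The sample titles say of the controls that they were kept in medium, and the labels give dilutions of 1000-fold and 100-fold of a 100 mg/ml extract and leave unstated which of them was arrayed. Separate cultures are not mentioned for the 3 samples of a group, so the p-values reflect spread that may be purely technical.

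Secreted and membrane proteins fold in the ER with the help of chaperones and disulfide isomerases. When unfolded proteins build up there, the sensors Ern1 (IRE1), Eif2ak3 (PERK) and Atf6 raise chaperone and degradation genes through the transcription factors Xbp1 and Atf6, and slow translation through phosphorylation of eIF2. Phosphorylated eIF2, which other kinases also produce when amino acids are scarce, favours translation of Atf4, and Atf4 induces amino acid synthesis and transport genes and the stress factor Ddit3 (CHOP). Adipocytes secrete hormones and carry an extensive ER, and Xbp1 is known to take part in fat cell formation in 3T3-L1 cells.

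The ER stress response element, CCAAT followed by a 9-base spacer and CCACG, is the promoter sequence through which NF-Y together with Atf6 or Xbp1 acts on chaperone genes, and it separates the genes below into those that carry an exact copy near their start and those that do not. Promoter windows of 300 bases, 250 before to 50 after the start, were taken from RefSeq (GRCm38.p6) for 30 of the 33 genes. The genes with no window in the table are Hyou1, Manf and Atf6. On either strand, the element was present in the windows of 8 genes, 7 of the 12 chaperone genes with a window and 1 of the 4 genes of ER-associated degradation (ERAD), against 0.119% of all 32851 windows. These are the matches, printed 5′ to 3′ in the orientation of the element, with its fixed letters in capitals and its 9-base spacer in lower case.
Hspa5: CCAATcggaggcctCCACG
Hsp90b1 (upstream): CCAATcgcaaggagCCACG
Hsp90b1 (downstream): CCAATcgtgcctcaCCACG
Calr: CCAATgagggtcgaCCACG
Canx: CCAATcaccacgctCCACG
Pdia6: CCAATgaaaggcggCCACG
Dnajc3: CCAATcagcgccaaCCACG
Creld2: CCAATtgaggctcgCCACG
Syvn1: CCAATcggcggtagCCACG
The Hsp90b1 window held a pair of matches on opposite strands. None of the 6 sensor and transcription factor genes with a window, and none of the 8 Atf4 target and feedback genes, held it. The shorter site CCACG, which every full element contains, was in the windows of 24 of the 30 genes and in 32.8% of all windows. The last 5 letters of the element TGACGTGG are that site read on the other strand. This element was in 0 of the members' windows, against 0.676% of all windows. TGATGNAAT, searched as a composite of C/EBP and Atf sites, was also in 0 of them, against 0.965%. That pattern fixes its last letter, and the windows of Asns, Chac1, Atf3 and Herpud1 match it in all but that letter. The search thus does not show that the members lack such composite sites.

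As whole windows, that of Hspa5, the promoter in which the element is best known, and that of Syvn1, the ERAD gene that carries it, are shown with the fixed letters of the element in capitals. The Hspa5 window lies at chr2:34771840-34772139 on the plus strand and the Syvn1 window at chr19:6046326-6046625 on the plus strand. The match begins 65 bases before the start in Hspa5 and 44 bases before it in Syvn1.
Hspa5: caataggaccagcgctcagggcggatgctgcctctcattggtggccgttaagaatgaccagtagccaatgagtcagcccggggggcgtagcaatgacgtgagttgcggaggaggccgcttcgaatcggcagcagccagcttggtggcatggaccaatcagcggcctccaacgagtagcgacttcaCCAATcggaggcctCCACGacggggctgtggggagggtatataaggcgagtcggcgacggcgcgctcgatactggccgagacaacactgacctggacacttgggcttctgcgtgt
Syvn1: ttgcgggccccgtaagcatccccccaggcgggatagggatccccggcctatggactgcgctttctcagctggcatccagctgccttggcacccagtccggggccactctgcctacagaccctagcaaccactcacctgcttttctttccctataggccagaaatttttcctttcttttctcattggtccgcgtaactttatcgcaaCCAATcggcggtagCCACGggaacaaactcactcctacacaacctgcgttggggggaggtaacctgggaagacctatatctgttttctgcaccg

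No member passed correction for all clusters, and the median absolute log2 difference of the members was 0.209, beside a median standard error of 0.182. With limma and a Benjamini-Hochberg correction spanning 22206 clusters, 0 of 31 members reached an adjusted p under 0.05, as did 0% of all clusters, and the lowest adjusted p among the members was 0.352, for Hyou1. At the threshold of the study's methods, an unadjusted p under 0.05 with a fold above 1.1, the chaperone gene Hyou1 and the sensor gene Ern1 passed, both higher with Tsuru. These 2 of 31 members make 6.45%, against 11.1% of all clusters, so the members passed no more often than other clusters. Higher calls were 2 of 31 against 5.75% of clusters, and lower calls 0 of 31 against 5.38%. The direction of the calls depended on the scaling of the arrays: 6 higher and 0 lower after subtraction of array medians, 2 higher and 2 lower after quantile normalization, and 1 higher and 2 lower after cyclic loess. Calls over all clusters also shifted towards higher with array medians subtracted, as given below. The 3 arrays of one group lay wholly on one side of the other group's for 8 of 31 members, or 25.8%, against 16.8% of all clusters. Of these, 7 were higher with Tsuru, where 9.06% of clusters were, and 1 was lower, where 7.75% were. The mean was higher with Tsuru for 22 of 31 members, or 71.0%, against 51.1% of all genes, and the median log2 difference was 0.16, against 0.01 over all genes. Dim genes were rarer among the members, however: 1 of 31 averaged under background, where 7771 of 21154 genes did. Clusters above log2 6 had more higher than lower calls, and the members' median was smaller after cyclic loess (both given below). The part of brightness in comparisons with all genes or clusters, here and below, was not tested.

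**Figure D1:**
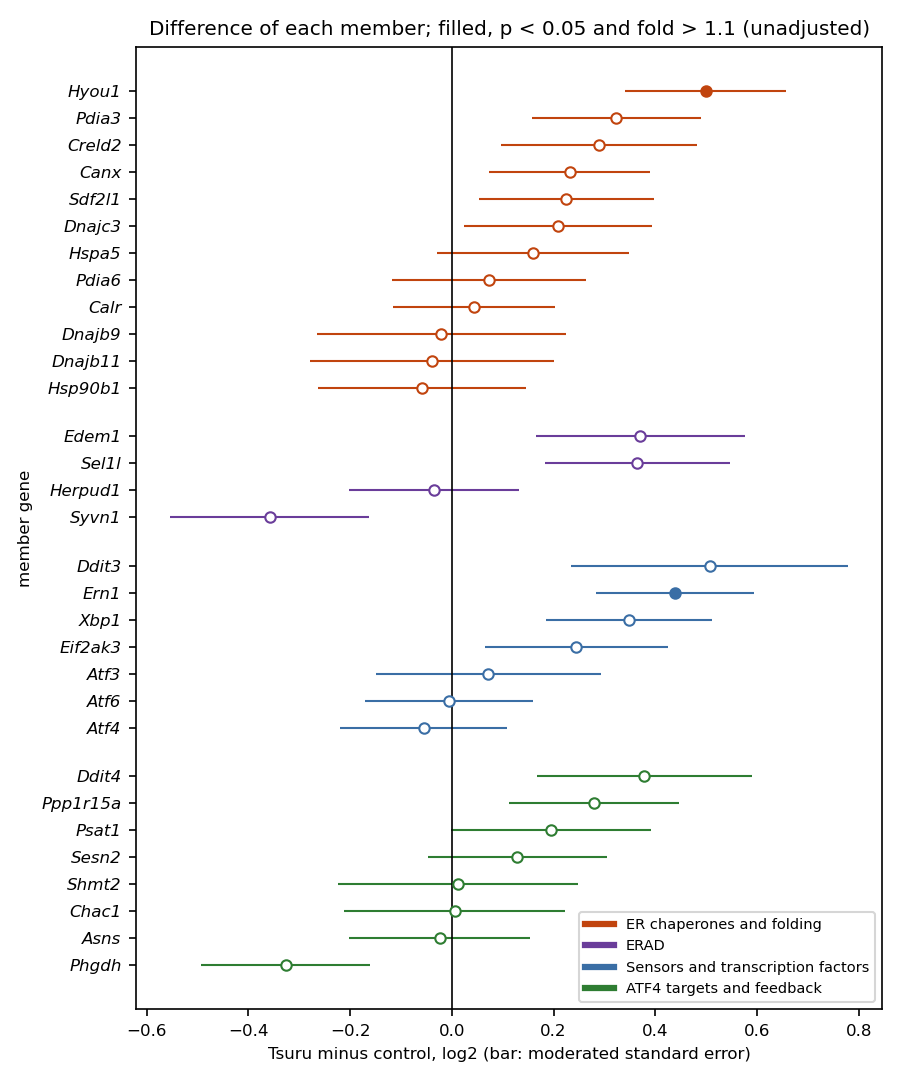
The difference Tsuru minus control (x axis, log2) of each of the 31 measured members (y axis), grouped and coloured by role, with bars of 1 moderated standard error. The filled points are Hyou1 and Ern1, the members past an unadjusted p under 0.05 with a fold above 1.1, and Syvn1 and Phgdh lie farthest to the left at -0.36 and -0.33.

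The arrays measure RNA of whole cultures, so fewer cells of a type and less RNA per cell cannot be told apart. Markers of adipocytes were high in both groups, and 9 of 10 had a higher mean with Tsuru, against 51.1% of all genes. Of the 10, 3 (Plin1, Plin4 and Cfd) passed the methods' threshold, all higher, against 5.75% of clusters called higher. For 5 of the 10 the Tsuru arrays all lay above the controls, where 9.06% of clusters did. The summed signal of the 10 ran from 19.33 to 19.64 with Tsuru and from 19.07 to 19.37 without (log2), which overlap. Lpl and Fabp4, the brightest of the 10, weigh most in that sum. The mean log2 signals of Fabp4, a fatty acid carrier, were 17.80 with Tsuru and 17.63 without, those of the hormone gene Adipoq 16.62 and 16.15, those of the lipid droplet gene Plin1 12.22 and 11.32, and those of the adipocyte regulator Pparg 14.18 and 14.21. Of the preadipocyte markers, 3 of 5 measured had a higher mean, with summed signals of 17.46 to 17.73 and 17.31 to 17.83. Among them Zfp423 (0.48) passed the methods' threshold, with groups that did not overlap. Macrophage and leukocyte markers were dim, with 2 of 8 under 4.57, the mean signal of the array's 23 background sets, and summed signals of 8.11 to 8.36 with Tsuru and 8.53 to 9.14 without, which do not overlap. Of the 8, 5 had a lower mean with Tsuru. The macrophage genes Lyz2 (-1.29) and Mrc1 (-1.15) passed the methods' threshold, where 5.38% of clusters were called lower. Taken singly, each of the 8 markers had groups that overlapped. All 4 endothelial markers averaged under that background, with summed signals of 5.62 to 5.996 and 5.90 to 5.97. Among them Cdh5 (-0.59) passed the methods' threshold, with groups that did not overlap. The part of these markers in the results below was not tested.

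Among the ER chaperone and folding genes, 9 of 12 had a higher mean with Tsuru, with a median log2 difference of 0.18 and a range from -0.06 to 0.50. Hyou1, an ER chaperone and nucleotide exchange factor of the Hspa5 cycle that is also induced by low oxygen, read 13.90, 13.90 and 13.82 with Tsuru and 13.29, 13.32 and 13.51 without (log2 signal, replicates 1 to 3 in order here and below). All 3 Tsuru arrays lay above all 3 control arrays, and control replicate 3 came closest to them. Its difference was 0.50 ± 0.16 (SE, n = 3 per group), a fold of 1.41, with an unadjusted p of 0.0105 in limma's test. It passed that threshold under 17 of 17 alternative settings, with differences from 0.40 to 0.58, and was past the authors' threshold in the authors' deposited table as well, at a fold of 1.43 and a p of 0.0122. The group averages in that table are not the means of the deposited arrays. For Ern1, described below, the authors' deposited table gives a Tsuru average of 8.72, under all 3 of its arrays, and for the control average of Dnajb9 it gives 12.26 where the arrays have a mean of 11.86.

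Hspa5 (BiP), the principal ER chaperone and the repressor of the 3 sensors, read 19.08, 19.13 and 18.81 with Tsuru and 19.01, 18.98 and 18.56 without. The groups overlapped, and replicate 3 was the lowest array of each. The difference was 0.16 ± 0.19 (SE), with an unadjusted p of 0.416 in limma's test. Hsp90b1 (Grp94), the ER member of the Hsp90 family, read 17.16, 17.37 and 16.88 with Tsuru and 17.35, 17.38 and 16.87 without. Its 2 groups covered almost the same range, with replicate 3 again the lowest of each, and the difference of -0.06 ± 0.21 (SE) kept its sign under 13 of 17 alternatives. Without control replicate 3, Hspa5 differed by 0.02 and Hsp90b1 by -0.22.

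Pdia3 (ERp57), the disulfide isomerase that works with the lectin chaperones on glycoproteins, read 16.49, 16.59 and 16.62 with Tsuru and 16.04, 16.37 and 16.31 without. The groups did not overlap, and control replicate 1 lay lowest. The difference of 0.32 ± 0.17 (SE) had an unadjusted p of 0.0813 in limma's test, and the gene passed the methods' threshold under 3 of 17 alternatives. Canx (calnexin), a membrane-bound lectin chaperone, read 14.46, 14.50 and 14.47 with Tsuru and 14.13, 14.38 and 14.22 without, again with no overlap, and differed by 0.23 ± 0.16 (SE). Calr (calreticulin), its soluble counterpart, differed by 0.04 ± 0.16 (SE) with overlapping groups.

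The other chaperone genes had overlapping groups and none passed a threshold. Creld2, an ER stress-inducible isomerase-type protein, differed by 0.29 ± 0.19 (SE), Sdf2l1, which works with Dnajb11 and Hspa5, by 0.22 ± 0.17, and Dnajc3 (p58IPK), a co-chaperone of Hspa5, by 0.21 ± 0.19. Pdia6, another disulfide isomerase, differed by 0.07 ± 0.19. The co-chaperones Dnajb9 (ERdj4) and Dnajb11 (ERdj3) had the widest spread among the controls, with SDs of 0.49 each, and differed by -0.02 and -0.04. Dnajb9 read 12.07, 12.21 and 11.29 on the control arrays and Dnajb11 read 9.51, 9.12 and 8.54, so control replicate 3 was the lowest of the 6 arrays for both.

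**Figure D2:**
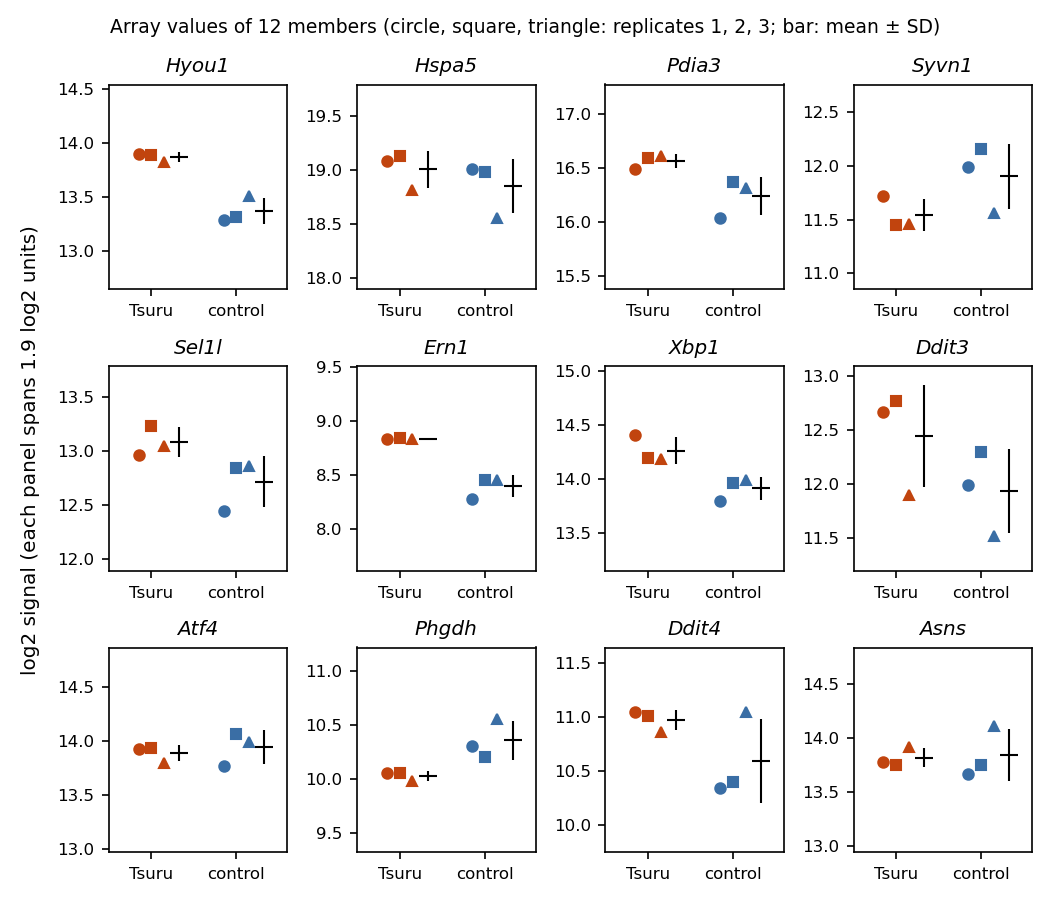
Log2 signal (y axis, each panel 1.9 log2 units high) of 12 members on the 3 Tsuru and 3 control arrays, with circle, square and triangle for replicates 1, 2 and 3 and a bar for the mean ± SD. The Tsuru points lie wholly above the control points for Hyou1, Pdia3, Sel1l, Ern1 and Xbp1 and wholly below them for Phgdh, and replicate 3 is the lowest of each group for Hspa5 and Ddit3.

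The 4 ERAD genes, which act in bringing misfolded proteins out of the ER for destruction, pointed in both directions, with a median of 0.16. Syvn1 (Hrd1), the ubiquitin ligase at the centre of the process, read 11.72, 11.45 and 11.46 with Tsuru and 11.99, 12.15 and 11.56 without. Control replicate 3 fell among the Tsuru arrays, so the groups overlapped, and the difference was -0.36 ± 0.20 (SE), with an unadjusted p of 0.0981 in limma's test. It passed the methods' threshold under 4 of 17 alternatives: at -0.48 after cyclic loess, at -0.46 after quantile normalization, at -0.53 without control replicate 3, and in the authors' deposited table at a signed fold of -1.34 and a p of 0.0391. Sel1l, the partner that stabilises Syvn1 in the membrane, read 12.97, 13.24 and 13.04 with Tsuru and 12.44, 12.84 and 12.87 without. Here the groups did not overlap and control replicate 1 lay lowest, and the difference was 0.36 ± 0.18 (SE), with an unadjusted p of 0.0734 in limma's test. Syvn1 and Sel1l thus had differences of opposite sign, and both signs held under 17 of 17 alternatives. Edem1, a mannosidase-like lectin that hands glycoproteins to ERAD, differed by 0.37 ± 0.21 (SE), and by 0.52 without either Tsuru replicate 3 or control replicate 2, where it passed the methods' threshold. Herpud1, which binds Syvn1, differed by -0.04 ± 0.17.

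Of the 3 sensors, Ern1 alone passed the methods' threshold; whether its difference exceeds theirs was not tested. Ern1, the kinase and RNase that splices Xbp1 mRNA, read 8.83, 8.84 and 8.83 with Tsuru and 8.28, 8.46 and 8.45 without. The Tsuru arrays were nearly identical, all above the controls, of which replicate 1 lay lowest. The difference was 0.44 ± 0.16 (SE), a fold of 1.35, with an unadjusted p of 0.0186 and an adjusted p of 0.380 in limma's test. It passed in 15 of 17 alternatives, those that left out an array included. It did not pass after cyclic loess, at 0.31 with a limma p-value of 0.0668, or after quantile normalization, at 0.31 with a limma p-value of 0.0617. Eif2ak3 (PERK), the ER kinase of eIF2, read 11.63, 11.63 and 11.50 with Tsuru and 11.20, 11.64 and 11.18 without, with control replicate 2 as high as the Tsuru arrays. It differed by 0.24 ± 0.18 (SE). Atf6, the membrane-bound transcription factor, read 11.84, 11.98 and 11.71 against 11.96, 11.86 and 11.73. Its groups coincided, with a difference of -0.01 ± 0.16 (SE).

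Xbp1, the target of Ern1, read 14.40, 14.20 and 14.19 with Tsuru and 13.79, 13.96 and 13.99 without. The groups did not overlap, with a difference of 0.35 ± 0.16 (SE), a fold of 1.27 and an unadjusted p of 0.0579 in limma's test. A gene-level array signal does not separate spliced from unspliced Xbp1 mRNA. Its difference ran from 0.26 to 0.43 over 17 alternatives, of which 3 passed the methods' threshold. Atf4, the central factor of the integrated stress response, which is regulated mainly through translation, read 13.93, 13.94 and 13.80 with Tsuru and 13.77, 14.07 and 13.995 without. The groups overlapped and the difference was -0.06 ± 0.16 (SE). Atf3, a stress-inducible factor downstream of Atf4, differed by 0.07 ± 0.22 (SE).

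Ddit3 (CHOP), the Atf4-induced factor linked to cell death under prolonged stress, had the largest difference among the members and also one of the widest spreads. It read 12.67, 12.77 and 11.90 with Tsuru and 11.99, 12.30 and 11.52 without. Replicate 3 was the lowest array of each group, and Tsuru replicate 3 fell below 2 of the 3 controls. The difference was 0.51 ± 0.27 (SE), a fold of 1.42, with an unadjusted p of 0.0929 in limma's test. Without Tsuru replicate 3 it was 0.78 and without control replicate 2 it was 0.69, both past the methods' threshold, while the lowest value with an array left out was 0.30. A second Ddit3 cluster read 11.12, 11.28 and 10.52 with Tsuru and 10.57, 10.99 and 9.67 without. It showed the same order of arrays within each group and a difference of 0.56 ± 0.33 (SE).

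The 8 Atf4 targets and feedback genes had a median difference of 0.07, and none passed the methods' threshold. That median turned on the control arrays, at -0.04 without control replicate 1 and 0.21 without control replicate 3, and was -0.02 after cyclic loess. Phgdh, which starts serine synthesis from glycolysis, read 10.06, 10.06 and 9.98 with Tsuru and 10.31, 10.21 and 10.56 without. It was the single member whose Tsuru arrays all lay below the controls, with a difference of -0.33 ± 0.17 (SE) and an unadjusted p of 0.0782 in limma's test. Phgdh kept its sign under 17 of 17 alternatives and passed the methods' threshold under 3 of them. Psat1, the next enzyme of serine synthesis, read 15.22, 15.17 and 15.20 against 14.77, 14.85 and 15.39. Its Tsuru arrays were close together while control replicate 3 stood above all other arrays, and the difference was 0.19 ± 0.20 (SE), or 0.39 without that array, where it passed the methods' threshold. Asns, the asparagine synthetase gene and a standard Atf4 target, read 13.78, 13.75 and 13.92 with Tsuru and 13.67, 13.75 and 14.12 without. Its groups overlapped, with control replicate 3 highest, and the difference was -0.02 ± 0.18 (SE).

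Ddit4 (Redd1), an inhibitor of mTORC1 that also responds to low oxygen and glucocorticoids, read 11.04, 11.01 and 10.86 with Tsuru and 10.34, 10.39 and 11.04 without. Controls 1 and 2 lay below all Tsuru arrays and control 3 lay with the highest of them. The difference was 0.38 ± 0.21 (SE), and 0.60 without control replicate 3, where it passed the methods' threshold with an unadjusted p of 0.00718 in limma's test. Shmt2, of mitochondrial one-carbon metabolism, differed by 0.01 ± 0.24 (SE), Chac1, which degrades glutathione, by 0.01 ± 0.22, and Sesn2, a leucine-sensing inhibitor of mTORC1, by 0.13 ± 0.18, all with overlapping groups. Ppp1r15a (Gadd34), which directs dephosphorylation of eIF2, read 4.03, 4.04 and 3.99 against 3.77, 3.91 and 3.54. These values do not overlap but lie under the background mean of 4.57 on every array, so its difference of 0.28 ± 0.17 is not exact.

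**Figure D3:**
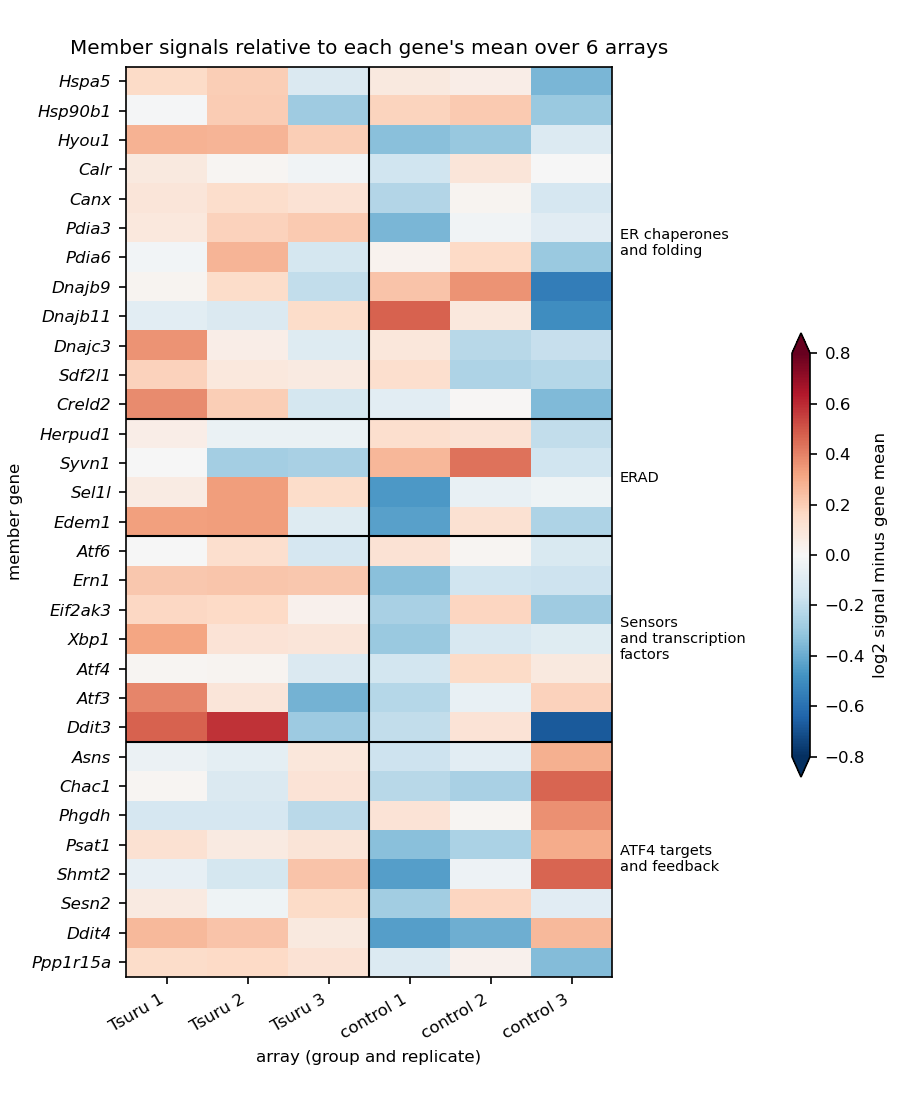
Log2 signal of each of the 31 members (rows, by role) on each array (columns), relative to the gene's mean over the 6 arrays, with red above and blue below that mean. Control replicate 3 is blue for Dnajb9, Dnajb11 and Ddit3 and red for Asns, Chac1, Phgdh, Psat1 and Shmt2. The 3 Tsuru columns are red for Hyou1 and Ern1 and also for other members, among them Canx, Pdia3, Sel1l and Xbp1.

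The role groups also differed between arrays of one group. The median deviation of the 12 chaperone genes from their own means was -0.26 on control replicate 3, against 0.05 and 0.04 on the other controls and 0.09, 0.17 and -0.06 on Tsuru replicates 1, 2 and 3. That array was the lowest control for 6 of the 12, and for 33.6% of all genes. The Atf4 target group deviated the other way on the same array, by 0.29, against -0.25 and -0.06 on controls 1 and 2 and 0.05, -0.06 and 0.10 on the Tsuru arrays. Control replicate 3 was the highest control for 6 of these 8 genes, and for 35.3% of all genes. Asns, Chac1, Phgdh, Psat1 and Shmt2 each had their highest reading of all 6 arrays there. Tsuru replicate 3 was the lowest array of its group for 9 of 12 chaperone genes and 6 of 7 sensor and transcription factor genes, against 37.2% of all genes. Control replicate 1, which stood apart from the other arrays over all clusters with a mean correlation of 0.987 against 0.991 to 0.992, was the lowest of the 6 arrays for 14 of 31 members and for 5106 of 21154 genes. The summed adipocyte markers were also lowest on replicate 3 of each group, at 19.33 with Tsuru and 19.07 without (log2), and their part in these array differences was not tested. Over all genes, the median deviation on an array was no more than 0.02 in size. The median log2 signals of the arrays themselves ran from 5.43 on Tsuru replicate 3 to 5.59 on control replicate 1. The deviations are descriptions of 6 arrays with no test.

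**Figure D4:**
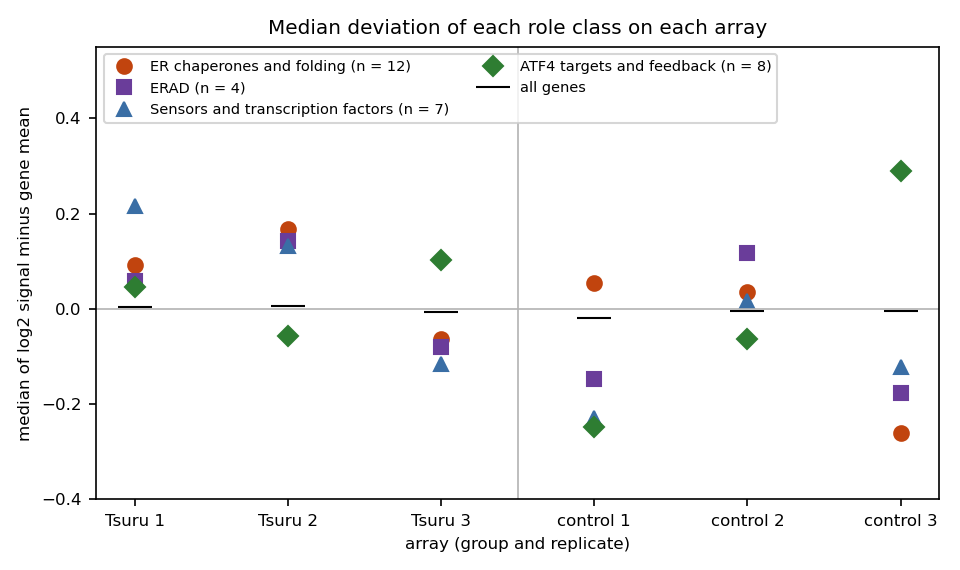
The median, over the genes of each role group, of log2 signal minus gene mean (y axis) on each array (x axis), with a dash for all 21154 genes. The chaperone group is lowest and the Atf4 target group highest on control replicate 3, at -0.26 and 0.29.

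Genes with the ER stress response element printed above did not move as a block. The 8 measured genes that carry it ran from -0.36 for Syvn1 to 0.29 for Creld2, with a median difference of 0.12, 6 of them higher and 2 lower. Of these 8, 0 passed the methods' threshold, where 11.1% of all clusters did, and 8 genes are too few to tell the 2 shares apart. The 21 measured genes whose window lacks an exact copy had a median of 0.19, with 15 higher and 6 lower, and 1 passed. The search took exact copies only. The Pdia3 window matches the element in all but its last letter. In the Herpud1 window CCAAT, read on the other strand, stands next to CCACG with a shorter spacer. The split thus does not separate genes with such elements from genes without them. Of the 2 members past that threshold, Ern1 lacks the element in its window and Hyou1 has no window in the table.

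Other genes of the 2 pathways, taken from lists of ER folding, translocation, ERAD, regulator and Atf4 target genes that hold none of the members, were read in the same way. Of 127 measured, 7 passed the methods' threshold higher with Tsuru and 3 lower, which is 7.87% against 11.1% of all clusters, and 0 reached an adjusted p under 0.05 in limma's test. The mean was higher for 81 and the median log2 difference was 0.11. Of 10 calls, 8 were in the list of 37 Atf4 and CHOP targets, or 21.6% of it, 6 of them higher and 2 lower. In the ER folding list 1 of 25 was called, in the translocation list 0 of 18, in the ERAD list 0 of 20 and in the regulator list 1 of 27.

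In the Atf4 and CHOP target list, Eif4ebp1, the gene of the translation repressor 4E-BP1, averaged 11.36 ± 0.18 with Tsuru and 10.49 ± 0.20 without (log2 signal, SD, n = 3). That is a fold of 1.82, with an adjusted p of 0.315 in limma's test. Trib3, the pseudokinase gene that restrains Akt and Atf4, stood at 10.98 ± 0.01 against 10.48 ± 0.11, a fold of 1.42. Psph, the last enzyme of serine synthesis, stood at 10.10 ± 0.11 against 10.93 ± 0.39, or 1.78-fold lower. The groups of each of these 3 genes did not overlap, and each passed the methods' threshold under 17 of 17 alternatives. Of the 3 serine synthesis enzymes, then, Phgdh and Psph had lower means with Tsuru and Psat1 a higher one.

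The other 5 calls of that list depended on single arrays or settings: Slc1a5 was called under 15 of 17 alternatives, Aldh1l2 under 12, Slc1a4 under 11 and Pycr1 under 7, and Shmt1 under 3 of 16. After cyclic loess Slc1a5 (0.33), Slc1a4 (0.55), Pycr1 (0.32) and Shmt1 (-0.33) were not called, and in the authors' deposited table Pycr1 (0.29) and Shmt1 (-0.14) were not. Aldh1l2, of mitochondrial folate metabolism, differed by 0.59 ± 0.21 (SE), and lost its call, at 0.51 or 0.52, when either of Tsuru replicates 1 and 2 or either of control replicates 1 and 3 was left out. The neutral amino acid transporter genes Slc1a5 and Slc1a4 differed by 0.44 ± 0.16 and 0.68 ± 0.27. Slc1a5 lost its call without Tsuru replicate 1, at 0.44, and Slc1a4 lost its call without Tsuru replicate 1 (0.57) or 3 (0.71), or without the first control array (0.35). Pycr1, of proline synthesis, differed by 0.43 ± 0.18 and lost its call without any Tsuru array or without control replicate 1 (0.28). Shmt1, the cytosolic counterpart of Shmt2, differed by -0.40 ± 0.18 at a dim signal, 4.82 ± 0.11 against 5.22 ± 0.22 (SD, n = 3), and was called without an array only when control replicate 2 was left out (-0.47). Its smallest difference with an array left out was -0.27, without control replicate 1.

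Outside the Atf4 list, the ER chaperone-like gene Erp29 differed by 0.43 ± 0.17 (SE), with both means, 4.40 and 3.98, under the background of 4.57, so that its difference is not exact. It lost its call without Tsuru replicate 1 (0.33), control replicate 1 (0.36) or control replicate 2 (0.44). Creb3l3, a liver-type ER-anchored transcription factor, differed by -0.57 ± 0.20 at 4.61 against 5.19. Its Tsuru mean was close to the background of 4.57, with Tsuru replicate 2 under it at 4.42, so this difference is not exact either. Creb3l3 lost its call without Tsuru replicate 2 (-0.48), control replicate 1 (-0.46) or control replicate 3 (-0.51). The uncalled genes with the smallest p-values within each list follow. In the ER folding list they were Fkbp2, an ER prolyl isomerase, at 0.34 ± 0.17, and Cnpy2 at 0.60 ± 0.30. The ERAD genes Man1b1, an ER mannosidase, Edem2 and Vimp (selenoprotein S) stood at 0.39 ± 0.18, 0.41 ± 0.19 and 0.36 ± 0.17. Of the regulators, Atf6b, the paralogue of Atf6, differed by 0.36 ± 0.17 and Eif2b1, a subunit of the eIF2 exchange factor, by 0.39 ± 0.19. In the translocation list, Srprb, a subunit of the signal recognition particle receptor, stood at 0.39 ± 0.18, Sec23b, of the vesicle coat for ER export, at 0.32 ± 0.19 and Sec61b, of the translocation channel, at 0.32 ± 0.20.

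**Figure D5:**
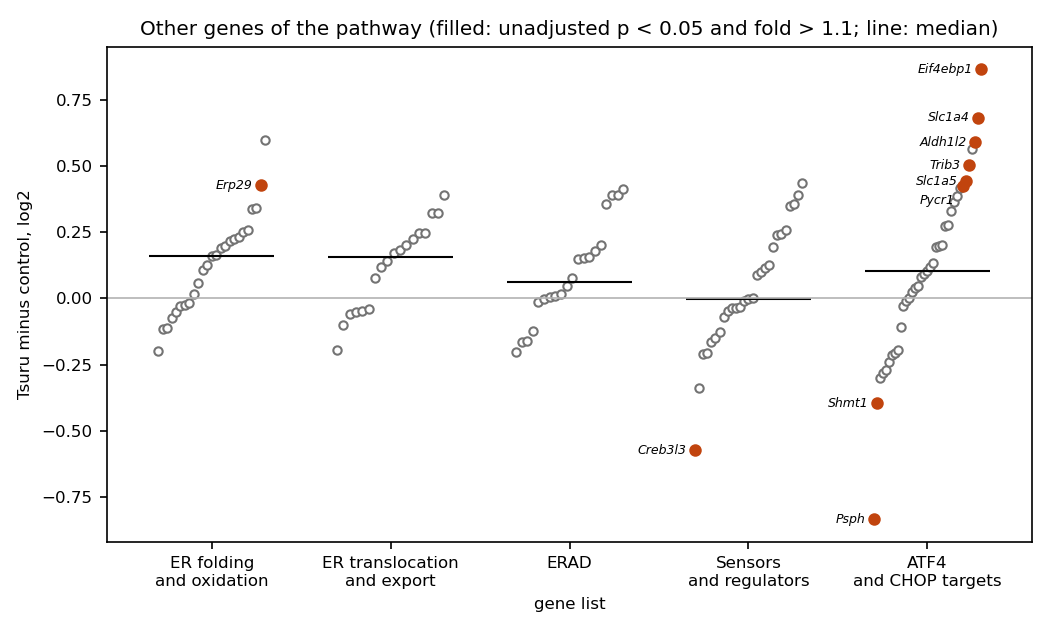
The difference Tsuru minus control (y axis, log2) of each of 127 other pathway genes, in order of size within each of 5 lists (x axis), with a line at each list's median. Filled points are the 10 genes past an unadjusted p under 0.05 with a fold above 1.1, of which 8 are in the Atf4 and CHOP target list, from Psph at -0.83 to Eif4ebp1 at 0.87.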

How the data were processed

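Transcript levels came from 6 Clariom S arrays (3 Tsuru, 3 control), grouped and numbered by the sample titles. The deposited log2 signals were made by the authors with SST-RMA in Transcriptome Analysis Console 4.0.2, per the series design text. The authors' deposited table holds p-values (ANOVA with an empirical Bayes step), a signed linear fold (a score below 0 where Tsuru is lower) and gene symbols. Its group averages differ from the means of the deposited arrays, for a reason the sources used here do not state, so it served only as an alternative. The array clusters' genome build was not given in the sources used here. Of 28846 probe sets, 6640 control sets were left out, and 22206 clusters entered the limma fit (version 3.58.1, R 4.3.3, Tsuru minus control, eBayes, no filter) with Benjamini-Hochberg adjustment over all clusters. The steps were tested on simulated data. Precision is limited by the number of arrays, 6, with a median standard error of 0.18 (log2) for member differences. The members and lists were chosen with earlier results of these data known. Array values were given for members past the methods' threshold, for the 2 with the smallest p in each role group and for 9 set members, and of the other pathway genes those past the threshold and the 3 with the smallest p in each list were named. Canx, Psat1 and Ppp1r15a, and the control readings of Dnajb9 and Dnajb11, were added after their values were seen. Alternatives were 3 scalings, 2 variance settings, array weights, a replicate block, 2 filters on dim clusters, the mean over a gene's clusters, the authors' table and each array left out. Of 135 other list entries, several of them older or newer symbols of one gene, 127 were matched. The deviations of same-numbered arrays had correlations of 0.00, 0.01 and 0.19 for replicates 1, 2 and 3. That of replicate 3 was the highest of any Tsuru and control pairing, and pairings of unlike number ran from -0.13 to 0.12. The numbers were not taken as pairs in the main fit.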

Additional observations from a re-analysis of the deposited data

How the results depend on the processing

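No member reached an adjusted p under 0.05 under any alternative, where 2 to 6 passed the unadjusted one with a fold above 1.1. Against 2 members past the methods' threshold, 6 passed with array medians subtracted (6 higher), 6 without the empirical Bayes step (5 higher, 1 lower), 5 with a variance trend (5 higher), 4 after quantile normalization (2 of them lower), 3 after cyclic loess (1 higher, 2 lower) and 3 in the authors' deposited table (1 lower). With each array left out, 2 to 5 members passed, 2 to 4 higher and 0 to 1 lower: 4 without Tsuru replicate 3, 4 without control replicate 2 and 5 without control replicate 3. The members' median difference was 0.24 with array medians subtracted and 0.082 after cyclic loess, the ERAD median was 0.019 in the authors' deposited table, whose averages are not those of the arrays, and the Atf4 target median ran from -0.04 to 0.21 with an array left out. Other pathway genes past the threshold numbered 20 with array medians subtracted and 5 to 21 with an array left out, with 5 without Tsuru replicate 1 or control replicate 1 and 21 without control replicate 3. Over all clusters, 2472 passed (1277 higher, 1195 lower), 2026 higher and 766 lower with array medians subtracted, 1309 (317 lower) among clusters above log2 6, where fewer are tested, and 1659 to 3616 with an array left out (797 to 1845 higher, 842 to 1771 lower). An adjusted p under 0.05 was reached by 0 clusters, and by 25 without control replicate 3. With the replicate block, 3 members passed, Ddit3 added (0.51, limma p-value 0.0183), 10 other pathway genes and 2775 clusters. It changed no other member's call. Apart from the settings whose construction gives it, the cause of these changes was not tested.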
